A study of Danio rerio with 2 samples.

Results

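The genes of cholesterol and bile acid synthesis were examined in whole zebrafish larvae exposed to benzo[a]pyrene (BaP). Of 37 symbols listed for these pathways, 34 were found under that symbol with a summed value of at least 10 over both libraries. These 34 genes are described here, of 22849 genes in the table. The symbols sqleb, baat and slc27a5 were not analysed here. Membership rested on the symbol and on this minimum, and the symbols were listed with earlier results of these data known.

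The exposed group was wild-type larvae of the AB strain kept in 1 µM BaP between 3 and 6 days post fertilization (dpf). Its control was wild-type AB larvae kept in 0.1% dimethyl sulfoxide (DMSO), a solvent, over the same days. Both were taken at 6 dpf as whole larvae, and the labels do not say whether the BaP medium also held DMSO. BaP is a combustion product that activates the aryl hydrocarbon receptor, and the study concerns its toxicity to bone. Each treatment was represented by 1 library, made per the labels from RNA of 4 pooled biological replicates, so that no difference below has a replicate check.

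Cholesterol is built from acetyl-CoA through mevalonate, the isoprenoid diphosphates, squalene and lanosterol. When membrane sterol is low, the escort protein Scap carries the precursor of the transcription factor Srebp-2 out of the endoplasmic reticulum, the released factor induces genes of every one of these steps in mammals, and Insig proteins hold the complex back when sterol is ample. The liver turns cholesterol into bile acids. Fish of the carp family excrete mainly bile alcohols, made by related steps. In mammals bile acids activate the nuclear receptor Fxr, which induces the repressor Shp and thereby lowers transcription of the first enzyme of the pathway.

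The values are normalized read counts, scaled by the authors and rounded. They summed to 11968060 in the BaP library and 13443263 in the DMSO library, which corresponded to about 22000000 (BaP) and 19804000 (DMSO) estimated reads. A ratio is the BaP value over the DMSO value. Its 95% interval, from the estimated reads, covers counting and rounding error only and not the variation between larvae. A gene is called apart where its ratio was at least 2-fold in either direction and its interval left out 1. Values depend on transcript length and are compared within a gene, not between genes.

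Among the bile acid genes cyp7a1, cyp8b1 and nr0b2a were lower in the BaP library, by 2.47-fold to 2.94-fold. The 7 listed genes of the mevalonate pathway had ratios of 1.18 to 1.84, none of them apart. Later steps went both ways, and the cholesterol-esterifying gene soat1 was 3.10-fold higher. Of the 34 genes, 2 (5.88%) were higher and 3 (8.82%) lower by the rule for apart. Over all 21764 genes compared, that rule called 3.31% higher and 3.57% lower, and on these small counts nothing is read from the difference in shares. The median log2 ratio of the 34 genes was 0.02, beside -0.06 over all genes compared.

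**Figure D1:**
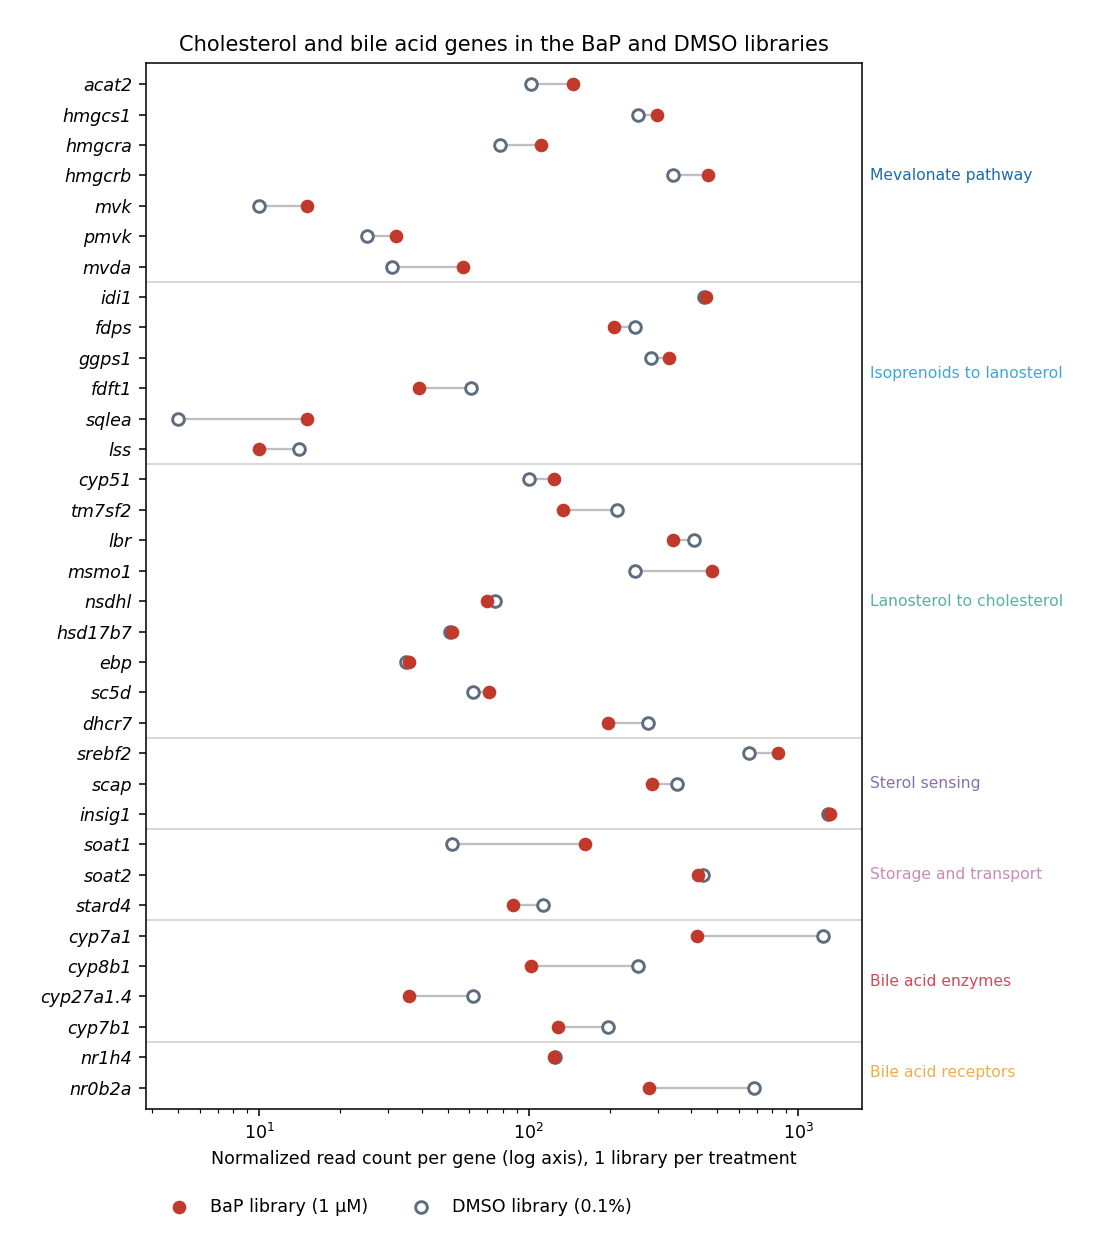
Normalized read count of each of the 34 genes in the BaP library (filled red) and the DMSO library (open grey), on a log axis, in pathway order from top to bottom, with 1 library per treatment. The red point lies right of the grey point for the 7 listed mevalonate genes and left of it for all 4 bile acid enzymes, as in cyp7a1, with 419 (BaP) and 1233 (DMSO).

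Among the bile acid enzymes, cyp7a1 differed most. It encodes cholesterol hydroxylase, the rate-limiting enzyme of the classical bile acid pathway in mammals (Ensembl gene ENSDARG00000069018, chromosome 2, 22150134 to 22152797, minus strand). Its normalized read count was 419 in the BaP library and 1233 in the DMSO library, 2.94-fold lower (95% interval 2.70 to 3.21). Of all genes compared, 1.13% had a ratio this low or lower. The sterol hydroxylase gene cyp8b1, whose product in mammals sets the balance between cholic and chenodeoxycholic acid, lies on the same chromosome (ENSDARG00000053068, 3435888 to 3437862, minus strand). It had 102 in the BaP library and 255 in the DMSO library, 2.5-fold lower (2.08 to 3.01).

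The remaining measured enzyme genes stayed within the 2-fold limit. The gene cyp27a1.4, of the family of the mitochondrial side-chain hydroxylase, had 36 in the BaP library and 62 in the DMSO library, a log2 ratio of -0.78. For cyp7b1, an oxysterol hydroxylase gene of the alternative pathway, the values were 128 in BaP larvae and 197 in DMSO larvae, a log2 ratio of -0.62. All 4 enzyme genes had intervals below 1. Over all genes compared, 26.8% had an interval below 1 and 18.5% an interval above 1, whatever the fold. A ratio as low as that of cyp27a1.4 was found in 7.07% of all genes, and as low as that of cyp7b1 in 10.4%. On chromosome 9 a copy of cyp27a1.4 lies close by, cyp27a1.2, which had 33 in both libraries. The sources used here do not say how reads shared by such copies were counted, so the split between them is uncertain.

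The 2 nuclear receptor genes of bile acid feedback differed from each other. The gene nr0b2a, which encodes Shp (ENSDARG00000044685, chromosome 16, 54875530 to 54880550, plus strand), had 278 in the BaP library and 686 in the DMSO library. It was 2.47-fold lower (2.22 to 2.75). The gene nr1h4, which encodes Fxr, had 124 in BaP larvae and 125 in DMSO larvae, a ratio of 0.992 (0.814 to 1.21), so that a difference larger than about 1.23-fold lay outside its counting interval. The intervals of nr0b2a and nr1h4 did not overlap. Over the 6 bile acid genes, enzymes and receptors together, the median log2 ratio was -1.04, and the 3 genes apart were lower and 0 higher. All 6 had a ratio below 1 on the deposited scale, and 5 under each of the 3 other scalings, where nr1h4 lay above 1. Over all genes compared, 3.57% were lower and 3.31% higher by the rule for apart. On the deposited scale 12265 of all 21764 genes compared had a ratio below 1. With only 6 genes, nothing is read from these counts.

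Most of the listed markers of hepatocytes, the cells in which bile acids are made, were also lower. Of 15 marker gene models compared, 14 had an interval below 1, against 26.8% of all genes compared. By the rule for apart 5 (33.3%) were lower, against 3.57% of all genes, and 0 were at 0 in either library. With 1 further model of the marker hp, under the minimum sum, their summed value was 65885 (BaP) and 113417 (DMSO), a ratio of 0.581. In this sum apoa1b alone had 20007 in the BaP library and 43470 in the DMSO library. The median log2 ratio of the 15 was -0.87. The range ran from -1.58 for uox (urate oxidase) to 0.03 for fabp10a, the liver fatty acid-binding protein gene, which had 8416 in the BaP library and 8255 in the DMSO library. The other markers apart were the transferrin gene tfa at -1.54, apoa1b at -1.12, ttr at -1.11 and apoa2 at -1.09. Genes of bile acid transport, not on the marker list, went both ways. The bile salt export pump genes abcb11a and abcb11b had ratios of 1.53 and 1.44, and the uptake gene slc10a1 had 0.423. In whole larvae, fewer cells of a type and less RNA per cell cannot be told apart.

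Set against these markers, cyp7a1 had a lower ratio than 14 of the 15, and only uox lay below it. The genes cyp8b1 and nr0b2a each had a lower ratio than 13 of the 15. By contrast 9 of the markers had a lower ratio than cyp27a1.4, 10 a lower one than cyp7b1, and 14 a lower one than nr1h4. Relative to the marker median, the log2 ratio was -0.69 for cyp7a1, -0.45 for cyp8b1, -0.44 for nr0b2a, 0.08 for cyp27a1.4, 0.25 for cyp7b1 and 0.86 for nr1h4. The part of hepatocyte content in the lower bile acid genes was not tested.

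**Figure D2:**
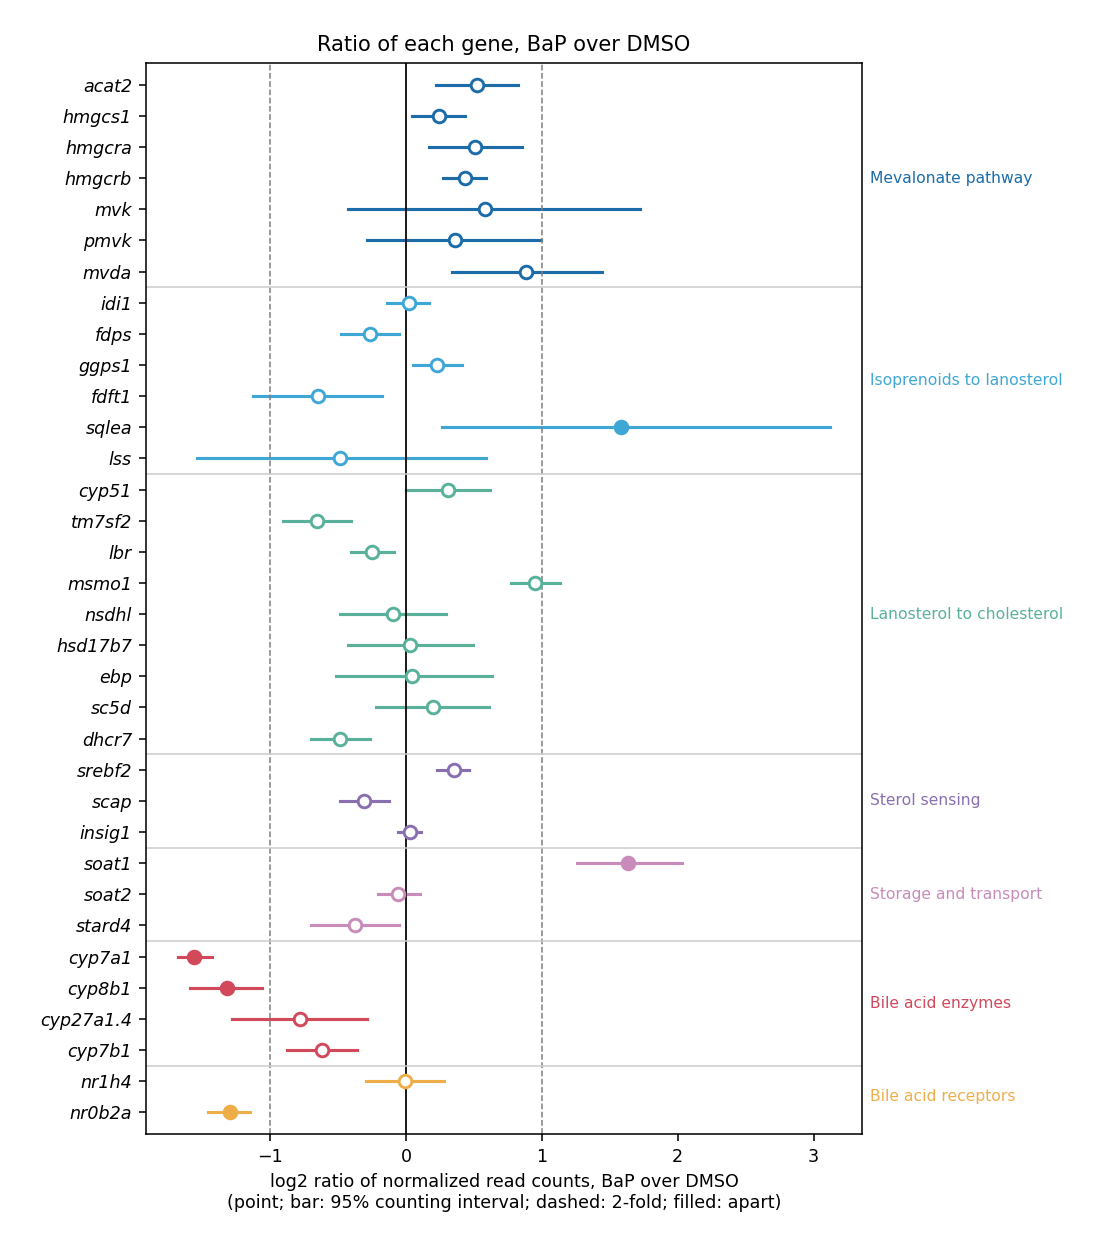
The log2 ratio of normalized read counts, BaP over DMSO, for each gene (point) with its 95% counting interval (bar), in pathway order. Filled points are apart, with the dashed lines at 2-fold. The filled points are sqlea and soat1 to the right, and cyp7a1, cyp8b1 and nr0b2a to the left.

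The listed genes of the mevalonate pathway had higher values in the BaP library, without a gene being apart. Of 7 genes, 7 had a ratio above 1, against 41.5% of all genes compared. The 3 other scalings tried raised the ratio of each of the 7, so this count could not change under them. In 5 of the 7 the interval lay above 1, against 18.5% over all genes. Their median log2 ratio was 0.51, beside -0.06 over all genes compared. The thiolase gene acat2, which acts first, had 146 in the BaP library and 102 in the DMSO library, a ratio of 1.43 (1.16 to 1.77). A second thiolase gene, acat1, is not among the 34 and lay the other way, with 1098 in the BaP library and 1596 in the DMSO library, a ratio of 0.688 (0.648 to 0.731). The synthase gene hmgcs1 had 299 in BaP larvae and 254 in DMSO larvae, the smallest of the 7 differences, with a ratio of 1.18 (1.03 to 1.35).

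HMG-CoA reductase, the rate-limiting enzyme and the target of statins, has a pair of gene copies in zebrafish. For hmgcra the values were 111 in the BaP library and 78 in the DMSO library, a ratio of 1.42 (1.13 to 1.80). For hmgcrb they were 461 in BaP larvae and 342 in DMSO larvae, a ratio of 1.35 (1.2 to 1.51). The intervals of the 2 copies overlapped, so a difference between their ratios was not detectable at this depth. The kinase genes rested on few reads, with 15 (BaP) and 10 (DMSO) for mvk and 32 (BaP) and 25 (DMSO) for pmvk, and both intervals held 1. The decarboxylase gene mvda (ENSDARG00000099336, chromosome 18, 31056645 to 31068755, plus strand) closes the pathway and had the largest of the 7 ratios. It had 57 in the BaP library and 31 in the DMSO library, a ratio of 1.84 (1.27 to 2.71).

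Between the isoprenoid diphosphates and lanosterol the 6 genes were mixed, with 3 ratios above 1 and 3 below. The isomerase gene idi1 had 452 in the BaP library and 447 in the DMSO library, a ratio of 1.01 (0.91 to 1.12). The farnesyl diphosphate synthase gene fdps had 206 in BaP larvae and 248 in DMSO larvae, a ratio of 0.831 (0.715 to 0.963). The gene ggps1, whose product leads away from sterols toward protein prenylation, had 332 in BaP larvae and 283 in DMSO larvae, a ratio of 1.17 (1.03 to 1.33). Squalene synthase, the first step committed to sterols, is encoded by fdft1, with 39 in the BaP library and 61 in the DMSO library, 1.56-fold lower (1.13 to 2.19).

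The squalene epoxidase gene sqlea (ENSDARG00000079946, chromosome 16, 43401005 to 43413293, plus strand) was apart on few reads. It had 15 in the BaP library and 5 in the DMSO library, or about 28 (BaP) and 7 (DMSO) estimated reads, a ratio of 3.00 with an interval of 1.2 to 8.69. At a minimum sum of 50 it would not have entered. The lanosterol synthase gene lss, also sparse, had 10 in BaP larvae and 14 in DMSO larvae, and its interval of 0.345 to 1.5 held 1.

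From lanosterol to cholesterol, 0 of 9 genes were apart, 1 had an interval above 1 and 3 below. Over all genes compared these shares were 18.5% above and 26.8% below, and nothing is read from the counts. The gene msmo1 encodes the methylsterol monooxygenase that starts the removal of the methyl groups at carbon 4 of the sterol (ENSDARG00000055876, chromosome 1, 20916551 to 20928772, minus strand). It had 478 in the BaP library and 247 in the DMSO library, a ratio of 1.94 (1.71 to 2.19), just inside the 2-fold limit. Of all genes compared 4% had a ratio as high, and with the median of ratios set to 1 it passed the limit. The partner enzymes of this demethylation were close to equality, with 70 (BaP) and 75 (DMSO) for nsdhl and 52 (BaP) and 51 (DMSO) for hsd17b7. The lanosterol demethylase gene cyp51 had 124 in BaP larvae and 100 in DMSO larvae, a ratio of 1.24 (0.999 to 1.54).

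The 3 sterol reductase genes had intervals below 1, without being apart. The gene tm7sf2 had 134 in the BaP library and 212 in the DMSO library, 1.58-fold lower (1.33 to 1.88). Its relative lbr, which encodes a nuclear membrane protein with the same reductase activity in mammals, had 343 in BaP larvae and 408 in DMSO larvae, 1.19-fold lower (1.06 to 1.33). The terminal reductase gene dhcr7 had 197 in BaP larvae and 276 in DMSO larvae, 1.4-fold lower (1.21 to 1.62). The isomerase gene ebp, with 36 (BaP) and 35 (DMSO), and the desaturase gene sc5d, with 71 (BaP) and 62 (DMSO), had intervals that held 1. Over the 22 enzyme genes from acetyl-CoA to cholesterol, 15 had a ratio above 1 (68.2%) and 7 below, against 41.5% above 1 over all genes compared. Scaled to the total of all values, 16 were above and 6 below. That scaling raised every ratio and put the median log2 ratio of all genes compared at 0.10.

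Of the genes for sterol sensing, srebf2, which encodes Srebp-2, had 836 in the BaP library and 658 in the DMSO library, a ratio of 1.27 (1.17 to 1.38). The escort gene scap had 285 in BaP larvae and 353 in DMSO larvae, a ratio of 0.807 (0.713 to 0.914). The gene insig1 had 1307 in BaP larvae and 1284 in DMSO larvae, a ratio of 1.02 (0.958 to 1.08). None of the 3 was apart.

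Esterification separated the 2 acyltransferase genes, whose products store cholesterol as esters in lipid droplets. The gene soat1 (ENSDARG00000062297, chromosome 8, 14886452 to 14910223, plus strand) had 161 in the BaP library and 52 in the DMSO library. Its ratio of 3.10 (2.39 to 4.07) was the highest of the 34 genes, and 1.25% of all genes compared reached it. The gene soat2, the form of liver and intestine in mammals, had 425 in BaP larvae and 443 in DMSO larvae, a ratio of 0.959 (0.863 to 1.07). The 2 intervals did not overlap. The gene stard4, for a sterol carrier of the cytosol, had 87 in the BaP library and 113 in the DMSO library, a ratio of 0.77 (0.614 to 0.966).

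**Figure D3:**
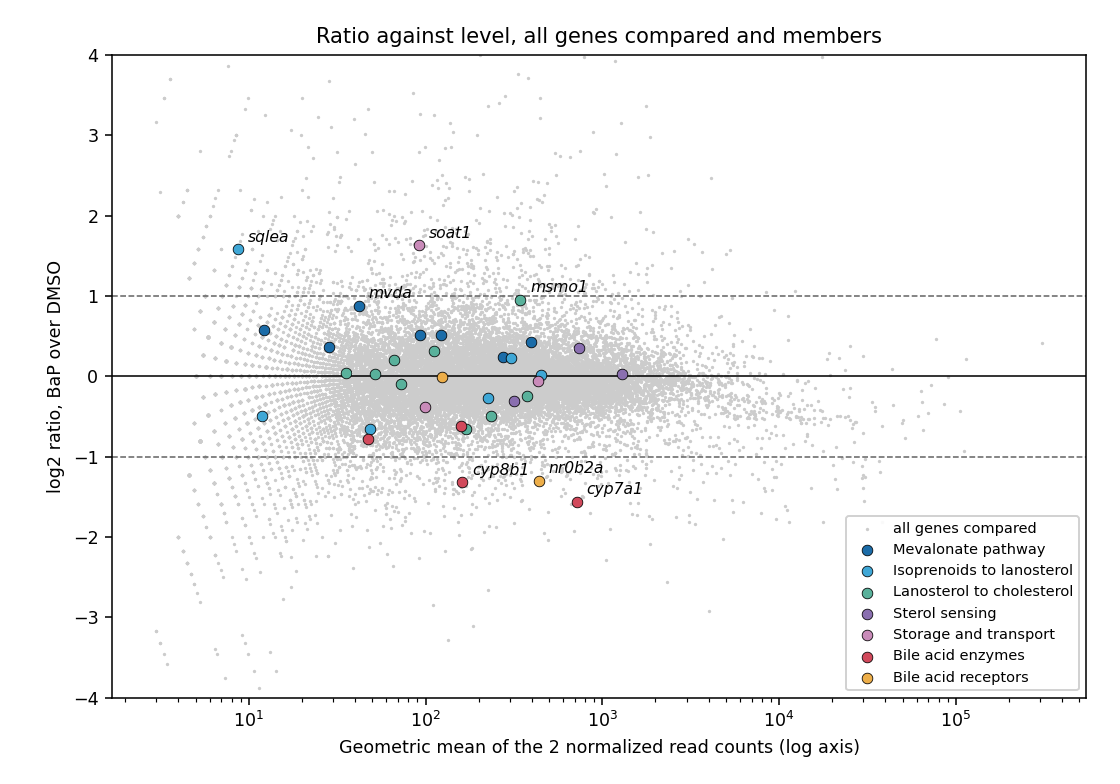
The log2 ratio, BaP over DMSO, against the geometric mean of the 2 normalized read counts (log axis) for all 21764 genes compared (grey) and the 34 genes by pathway step (coloured), with dashed lines at 2-fold. The lower genes cyp7a1, cyp8b1 and nr0b2a lie at well-covered levels below the line, soat1 and sqlea above it, and 18 genes fall outside the plotted range.

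Position in the genome was shared by few of these genes. They lay on 18 chromosomes, with 5 on chromosome 16 and 4 on chromosome 2, where cyp7a1, cyp8b1 and cyp7b1 lie megabases apart. In the deposited annotation 5 members overlap another gene. The genes fdps and lss overlap genes of their own strand (si:dkey-85k15.7 and mcm3ap), whereas pmvk, dhcr7 and soat2 overlap genes of the opposite strand (eaf1, nadsyn1 and igsf8). The library kit kept strand, but the sources used here do not say whether counting used it, so reads of these overlaps may be shared. No listed gene overlapped cyp7a1, cyp8b1, nr0b2a, soat1 or sqlea.

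The other genes of these pathways were read from further lists. Of 22 further genes of cholesterol synthesis and its control, 1 was higher (4.55%) and 0 lower (median log2 ratio -0.14). Over all genes compared, the shares were 3.31% higher and 3.57% lower, and nothing is read from so small a count. The higher gene was ch25h, for a cholesterol hydroxylase, with 12 in the BaP library and 3 in the DMSO library. It rested on few reads, about 22 (BaP) and 4 (DMSO) estimated reads, and its interval was 1.3 to 17.6.

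Of 29 genes of cholesterol uptake and efflux, 3 were higher (10.3%) and 2 lower (6.9%), with a median log2 ratio of -0.06. Over all genes compared, the shares were 3.31% higher and 3.57% lower, and nothing is read from these small counts. The low-density lipoprotein receptor gene ldlrb had 182 in the BaP library and 54 in the DMSO library, a ratio of 3.37 (2.61 to 4.40). Its copy ldlra had 1952 in BaP larvae and 2189 in DMSO larvae, a ratio of 0.892 (0.85 to 0.936), and the intervals of the copies did not overlap. The endothelial lipase gene lipg was 2.93-fold higher, with 437 in the BaP library and 149 in the DMSO library. The receptor adaptor gene ldlrap1b, with 68 (BaP) and 33 (DMSO), was 2.06-fold higher.

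The 2 lower genes of that list were the cholesteryl ester transfer protein gene cetp, with 320 in the BaP library and 688 in the DMSO library, and the scavenger receptor gene cd36, with 551 (BaP) and 1148 (DMSO). The partner genes abcg5 and abcg8, whose products together export sterols, had ratios of 1.80 and 1.48. For abcg5 the values were 270 in BaP larvae and 150 in DMSO larvae, and for abcg8 they were 251 in BaP larvae and 170 in DMSO larvae. Their annotations overlap by 58 bases on opposite strands. The sterol efflux gene abca1a had 8699 in the BaP library and 7414 in the DMSO library, a ratio of 1.17 (1.15 to 1.2).

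Among 28 further bile acid genes, with a median log2 ratio of 0.03, 2 were higher and 2 lower (7.14% each). The shares over all genes compared were 3.31% higher and 3.57% lower, and nothing is read from these small counts. Both higher genes encode bile acid transporters of the intestine. The apical uptake gene slc10a2 had 418 in the BaP library and 150 in the DMSO library, a ratio of 2.79 (2.39 to 3.25). The basolateral export gene slc51a had 656 in BaP larvae and 300 in DMSO larvae, a ratio of 2.19 (1.96 to 2.44). The lower genes were scp2a, a sterol carrier and peroxisomal thiolase gene, with 1313 in the BaP library and 2722 in the DMSO library, and slc10a1, the bile acid uptake gene of the hepatocyte in mammals, with 11 (BaP) and 26 (DMSO). For slc10a1 the reads were few, about 20 (BaP) and 38 (DMSO) estimated reads, with an interval of 0.227 to 0.774.

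Genes for export into bile and for signalling back from the gut were not apart. The bile salt export pump genes had 340 in the BaP library and 222 in the DMSO library for abcb11a and 1067 (BaP) and 743 (DMSO) for abcb11b, with both intervals above 1. The feedback hormone gene fgf19 had 29 in BaP larvae and 28 in DMSO larvae, a ratio of 1.04 (0.676 to 1.62). Its receptor gene fgfr4 had 993 in BaP larvae and 1298 in DMSO larvae, and the co-receptor gene klb had 252 in BaP larvae and 170 in DMSO larvae, ratios of 0.765 and 1.48. The peroxisomal side-chain enzyme gene hsd17b4 had 403 in BaP larvae and 771 in DMSO larvae, a ratio of 0.523 (0.475 to 0.574), just inside the 2-fold limit. These genes, the uptake genes and the cholesterol genes were picked from knowledge of the pathway, so no list is an independent sample of it.

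**Figure D4:**
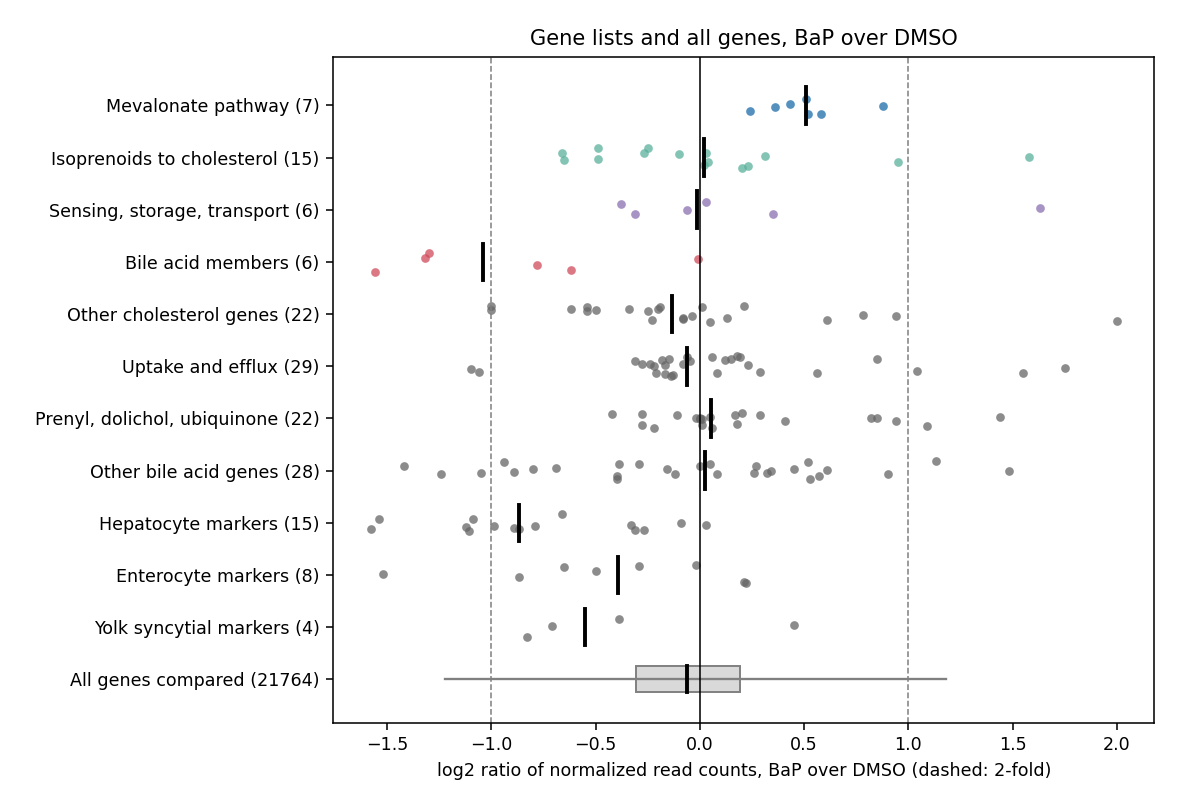
The log2 ratio, BaP over DMSO, of each gene (point) by list, with the list median (black tick) and the number of genes in parentheses. For all genes compared the box spans the middle 50% and the line 95% of genes, with the median of -0.06. The 7 listed mevalonate genes lie right of 0, the bile acid members and hepatocyte markers mostly left, and the other lists on both sides.

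Other tissues that make or take up sterols gave mixed values. Of 8 enterocyte markers 1 was lower (12.5%) and 0 higher, against 3.57% lower and 3.31% higher over all genes compared. The lower marker was the fatty acid-binding protein gene fabp2 at a log2 ratio of -1.52, and the list median was -0.40. The summed value of these markers was 17403 in the BaP library and 26651 in the DMSO library. Beside the higher slc10a2 and slc51a, the gut bile acid-binding gene fabp6 had 3423 in BaP larvae and 4191 in DMSO larvae, a ratio of 0.817 (0.788 to 0.846). Of 4 markers of the yolk syncytial layer none was apart (median -0.55), and likewise of 4 neuron markers (median -0.06) and 4 myelin markers (median -0.30). Of 5 genes of the interrenal gland, which turns cholesterol into steroids, 1 was lower (20%). This was cyp17a1, with 24 (BaP) and 51 (DMSO), and the list median was 0.26. Intervals lay below 1 for 5 of 8 enterocyte, 3 of 4 yolk syncytial, 3 of 4 myelin and 2 of 4 neuron markers. Of the 5 interrenal genes 1 had an interval below 1, and 1 enterocyte and 1 yolk syncytial marker had one above. Over all genes compared, 26.8% had an interval below 1 and 18.5% one above. On such small counts nothing is read from the shares of these tissue lists. The part of these tissues in the sterol genes was not tested.

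The pathway terms of the deposited annotation share genes with the 34, so their counts are not a separate check. Over all genes compared, 3.31% were higher and 3.57% lower, and on such small counts nothing is read from the difference. Of 21 genes under terpenoid backbone biosynthesis, 10 of them among the 34, 1 was higher (4.76%) and 0 lower (median log2 ratio 0.18). Under steroid biosynthesis 20 genes were listed, 8 of them outside the 34, with 3 higher (15%), 2 lower (10%) and a median of 0.03. The genes that were apart beyond sqlea and soat1 were lipases. These were lipf, with 1324 in the BaP library and 599 in the DMSO library, cel.1, with 5574 (BaP) and 14901 (DMSO), and cel.2, with 808 (BaP) and 2654 (DMSO). Of 18 genes under primary bile acid biosynthesis, 14 of them outside the 34, 1 was higher (5.56%) and 3 lower (16.7%), with a median of -0.14. The higher gene was ch25h, which rested on few reads, and the lower ones were cyp7a1, cyp8b1 and scp2a.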

How the data were processed

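Whole-larvae RNA was sequenced as 1 stranded mRNA library per treatment, from 200 ng of total RNA, per the labels' protocols. The submitters' processing notes list GRCz11 and danRer11 as builds, and as tools featureCounts 1.6.3, STAR 2.6.1d and Trimmomatic 0.38, without their roles. The deposited values are a score: read counts per gene that the authors scaled by a method not given in the sources used here and rounded to whole numbers. They are not raw counts, so no count model was fitted.

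The scaling factor of each library was estimated from the spacing of low values by maximum likelihood, as 0.544 (BaP) and 0.679 (DMSO), and dividing by it gave estimated reads. Ratios used the deposited values, with a 0 set to 3 reads. Intervals are exact Clopper-Pearson intervals at 95%, conditional on the summed reads and widened for rounding. They cover counting error only, and reads without molecular identifiers are not independent molecules. Genes with a sum of at least 10 entered. On data simulated for this comparison, 95.9% of 21736 intervals held the true ratio. Called were 47 of 50 genes changed 2.5-fold, 0 of 50 changed 1.5-fold, and 64 of 21536 unchanged genes. The simulation held counting error only, without variation between larvae. Its changed genes were all better covered than sqlea, mvk and lss, so the rates for changed genes do not apply to such sparse genes. The rates for intervals and for unchanged genes included sparse genes but were not split by depth.

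All 34 members are named. From the other pathway lists and the hepatocyte markers the genes apart are named (up to 6, or the 2 most abundant where none was apart), and some others were added after their values were seen. The pathway terms were also added then. Members and lists were chosen with earlier results of these data known. Of 154 symbols in the 10 other lists, 138 were matched. Alternatives were other folds, scalings, filters, a pseudocount, values taken as reads and assumed variation between libraries. Promoter motifs and protein sequences had been planned and were not used here. The software was statsmodels 0.14.6, scipy 1.17.1, matplotlib 3.10.9, pandas 2.3.3 and numpy 2.4.6 under Python 3.11.15.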

Additional observations from a re-analysis of the deposited data

How the results depend on the processing

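No paired analysis was possible because each treatment had 1 library, and for the same reason no library could be left out. The 3 lower genes cyp7a1, cyp8b1 and nr0b2a stayed apart under all 3 other scalings, both other filters, a pseudocount of 5, values taken as reads and an assumed coefficient of variation of 0.2 between libraries. At a fold of at least 3, 2 members were higher (soat1 and sqlea) and 0 lower, and 298 genes overall were higher and 233 lower. The ratio of sqlea lay exactly at that limit. At a fold of at least 1.5, 4 members were higher (adding msmo1 and mvda) and 7 lower, of which 5 were bile acid genes and 2 cholesterol genes (fdft1 and tm7sf2), and 1599 genes overall were higher and 1926 lower. Scaling to the total of all values moved each log2 ratio by 0.17, which brought 4 members to higher (again with msmo1 and mvda). Under it 1026 genes of all compared were higher, up from 720, and 508 lower, down from 778. With a minimum sum of 50, 1 member was higher, soat1, and of all genes 552 were higher and 497 lower. An assumed coefficient of variation of 0.4, chosen like that of 0.2 after seeing the data, left 1 member higher (soat1), 1 lower (cyp7a1), and 258 genes overall higher and 161 lower. No member that was apart changed direction, but these alternatives were not able to reverse one. They left each such ratio as it was or moved it by less than 2-fold. For sqlea, mvk and lss the depth was the limit, with 7 to 28 estimated reads in each library.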

Other observations

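The branches that leave the pathway at the isoprenoid diphosphates were read from a further list. Of 22 genes for protein prenylation, dolichol and ubiquinone, 2 were higher (9.09%) and 0 lower by the same rule (median log2 ratio 0.06). Over all genes compared, the shares were 3.31% higher and 3.57% lower, and nothing is read from such small counts. Both higher genes belong to ubiquinone synthesis. The gene pdss2, for a subunit of the synthase of the isoprenoid tail, had 84 in the BaP library and 31 in the DMSO library, a ratio of 2.71 (1.92 to 3.94). The other subunit gene, pdss1, had 238 in BaP larvae and 132 in DMSO larvae, a ratio of 1.80 (1.51 to 2.15). The methyltransferase gene coq5 had 230 in BaP larvae and 108 in DMSO larvae, a ratio of 2.13 (1.77 to 2.57), and the hydroxylase gene coq7 had 292 in BaP larvae and 165 in DMSO larvae, a ratio of 1.77 (1.52 to 2.07). Other ubiquinone genes lay close to equality, with 106 (BaP) and 105 (DMSO) for coq3 and 342 (BaP) and 343 (DMSO) for coq6, while coq2, whose product attaches the tail, had 76 in BaP larvae and 92 in DMSO larvae (interval 0.642 to 1.06). The farnesyltransferase subunit genes had 260 in the BaP library and 264 in the DMSO library for fnta and 374 (BaP) and 500 (DMSO) for fntb. The dolichol genes were mixed. The kinase gene dolk had 46 in BaP larvae and 24 in DMSO larvae, a ratio of 1.92 (1.25 to 2.97). By contrast dhdds had 128 in BaP larvae and 155 in DMSO larvae, a ratio of 0.826 with an interval just below 1. For nus1, dpagt1 and srd5a3 the intervals held 1.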
